A study of Mus musculus with 12 samples.

Results

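The dermal sheath and the outer root sheath are the cell layers on either side of the basement membrane of the hair follicle, and they were compared here across all genes. The dermal sheath is the outer, mesenchymal layer, and the outer root sheath is the epithelial layer that it wraps. Both were sorted from dorsal skin of mice of the outbred CD1 strain, at the age of 5 days after birth, and each had 2 RNA sequencing libraries, so 4 of the study's 12 libraries were used. The other libraries came from dermal papilla, dermal fibroblasts, matrix and melanocytes of the same tissue and age. The labels give no genotype, transgene or treatment for any population, and the series title names contraction of the dermal sheath as the subject of the study. The genes or gates used for sorting, and whether replicate libraries came from separate animals, are not given in the sources used here, so the p-values below measure the spread between libraries, which may be technical. Values are FPKM, fragments counted per length of transcript and per number of fragments mapped, as the authors deposited them. Of the 19150 genes in the table, 12617 reached 1 FPKM in at least 2 of the 4 libraries and were tested, and 6533 were not.

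A basement membrane is a thin sheet of laminins, type IV collagens, nidogens and heparan sulphate proteoglycans on which epithelial cells sit. Basal keratinocytes such as those of the outer root sheath hold on to it through hemidesmosomes, which join the laminin receptor integrin alpha-6 beta-4 to the keratin filaments of the cell. On the other side the dermal sheath has features of smooth muscle. Smooth muscle contracts when calcium activates myosin light chain kinase, which phosphorylates the regulatory light chain of myosin, and the myosin heavy chains then pull on filaments of actin and tropomyosin. Serum response factor with its myocardin family coactivators switches on many genes of this apparatus through a short promoter element called the CArG box.

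The 4 genes that mark the layers followed their labels. Acta2 (smooth muscle alpha-actin, chr19:34241090-34255590, mm10) was at 758 and 1381 FPKM in the 2 dermal sheath libraries and at 36.7 and 59.1 in the 2 outer root sheath libraries. Actg2 (smooth muscle gamma-actin, chr6:83512905-83536265) was at 357 and 367 against 3.16 and 1.52. Krt5 (keratin 5 of basal keratinocytes, chr15:101707070-101712898) was at 71.9 and 44.7 in the sheath and at 2386 and 2419 in the outer root sheath. Trp63 (p63, the transcription factor of stratified epithelia, chr16:25683763-25892102) was at 11.02 and 10.3 against 366 and 352. No pair of groups overlapped. None of the 4 was absent from the layer it does not mark, and Acta2 in the outer root sheath stood at 4.48% of its mean in the dermal sheath.

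All 4 libraries gave between 11434 and 12007 genes at 1 FPKM or more, and their FPKM summed to between 373066 and 524040, the 2 sheath libraries having the higher sums. Across tested genes, the correlation of log2(FPKM + 1) was 0.950 between the sheath libraries, 0.958 between the outer root sheath libraries and 0.578 to 0.620 between layers (a description over genes, which are not independent replicates). Genes were compared with limma on log2(FPKM + 1), 2 libraries against 2, with p-values adjusted by Benjamini-Hochberg over all 12617 genes. A gene was called at an adjusted p under 0.05 and a log2 difference of at least 1 in size, and "higher" means higher in the dermal sheath. Folds are those of FPKM + 1 and understate the change of weakly expressed genes. The median standard deviation between libraries of a layer was 0.27 in the sheath and 0.21 in the outer root sheath on the log2 scale.

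The layers differed in 41.8% of tested genes. Of these, 2885 genes (22.9%) were higher in the dermal sheath and 2387 (18.9%) were lower, with a median log2 difference of -0.0041 over all tested genes. Counts of list members below are to be read beside these shares. A gene under 1 FPKM in both libraries of 1 layer passed the filter only through the other layer. Such a gene could be called in 1 direction only. In bulk samples such as these, fewer cells of a type and less RNA per cell cannot be told apart. The groups of every called gene were without overlap, which follows largely from the calling rule. The difference reached 1 on the log2 scale between both same-numbered pairs of libraries for 2433 of the higher and 1917 of the lower genes. The split between directions rested on the scale: 54.7% of called genes were higher in the FPKM as deposited, and 37.0% (2152 higher and 3662 lower) once libraries were scaled to an equal sum, which moved the median by -0.39. Without dermal sheath library 1 the calls fell to 1663 higher and 1020 lower, and without library 2 to 1867 and 1407.

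**Figure D1:**
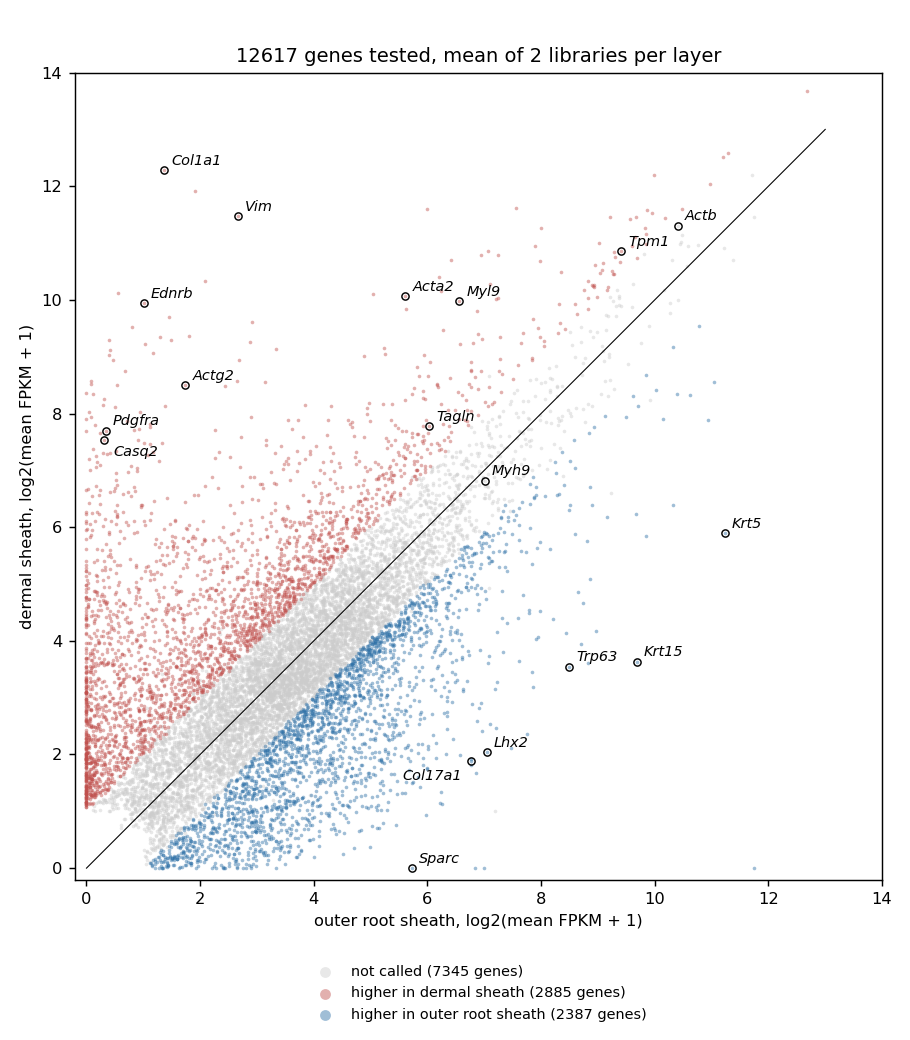
Each point is 1 of the 12617 tested genes, at log2(mean FPKM + 1) over 2 libraries in the outer root sheath (x axis) and the dermal sheath (y axis), with the diagonal marking equal levels. The 2885 genes higher in the sheath reach the left edge, where the outer root sheath is near 0, while Krt5, Trp63 and Krt15 lie to the right at a low level in the sheath.

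The 12 genes with the largest log2 difference in favour of the dermal sheath (among those averaging 20 FPKM or more in the sheath and not listed at 0 in both outer root sheath libraries) were Col1a1, Col1a2, Mfap4, Ednrb, Lrrc15, Col6a2, Vim, Ccdc80, Tnmd, Col11a1, Col6a1 and Itgbl1, of which 5 encode collagen chains. Col1a1, a chain of type I collagen, was at 5972 and 3998 FPKM in the sheath and at 1.17 and 1.96 in the outer root sheath, a log2 difference of 10.91 ± 0.29 (SE; limma, adjusted p = 3.55e-08). Vim, the intermediate filament protein of mesenchymal cells, was at 3230 and 2441 against 5.45 and 5.22. Tnmd, tenomodulin of tendons, was at 419 and 626 against 0.130 and 0.5003. In the outer root sheath these 12 stood at 0.0142% to 0.188% of their sheath mean.

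By the same rule the 12 genes in favour of the outer root sheath were Krt15, Mir1931, Krt5, Cntfr, Fgfbp1, Ucp2, Scarna8, Tenm2, Cyp2s1, Car12, Bnc1 and Lhx2. Krt15, a keratin of basal and bulge cells, was at 12.09 and 10.7 FPKM in the sheath and at 795 and 843 in the outer root sheath (log2 -6.05 ± 0.25, SE; limma, adjusted p = 1.89e-07). Lhx2, a homeobox factor of follicle stem cells, was at 2.29 and 3.94 against 164 and 98.1. Fgfbp1, which releases FGFs from the matrix, was at 2.84 and 3.87 against 155 and 199. The 12 stood in the sheath at 1.39% to 17.5% of their outer root sheath mean, with a median of 2.00%. Mir1931 and Scarna8 are short noncoding RNAs that were at 149 and 167 in sheath library 1 and at 0 in library 2, and without library 2 neither was called (log2 -2.34 with adjusted p = 0.0921, and -1.50 with adjusted p = 0.0553). Among all called genes of at least 20 FPKM in the layer where they were higher, 185 of 1388 sheath genes were under 1% in the other layer, against 6 of 1101 outer root sheath genes.

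RNA of basal keratinocyte markers was measurable in the dermal sheath libraries, and not in these alone among the mesenchymal populations. Krt5 was at 121 and 70.0 FPKM in the dermal papilla libraries and at 85.8 and 52.1 in the dermal fibroblast libraries. Trp63 was at 16.9 and 10.8 in the papilla and at 23.7 and 23.3 in the fibroblasts. All 13 basal keratinocyte markers listed were called lower, and all 13 were at 1 FPKM or more in both sheath libraries. Their FPKM summed to 293 and 233 in the sheath and to 5662 and 5738 in the outer root sheath, and a marker stood in the sheath at 7.11% of its outer root sheath mean (median, range 1.39% to 38.7%). In the other direction, the 15 dermal fibroblast genes listed summed to 1609 and 2082 in the sheath and to 214 and 150 in the outer root sheath. Only 5 and 6 of the 15 were at 1 FPKM or more in the outer root sheath libraries, and 5 were at 0 in each. Among genes not at 0 in both, the sheath stood at 6464% of the outer root sheath mean (median, range 9.55% to 78955.7%). The source of the keratinocyte marker RNA in the sheath libraries, and its part in the lower calls, were not tested.

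The contractile genes fell into those near absent from the outer root sheath, those present in both layers but higher in the sheath, and those present in both and not called. Of 29 smooth muscle contractile genes listed, 27 were tested. Of these, 15 were higher in the dermal sheath, 11 were not called and 1 was lower. The count of higher genes was 12 at a pseudocount of 5 or after quantile normalization, and smaller still without sheath library 1 or 2. The median log2 difference was 1.28, beside 22.9% higher and 18.9% lower and a median of -0.0041 over all tested genes. Of 31 genes of the actin and myosin machinery that all cells use, 11 were higher, 3 lower and 17 not called, with a median of 0.43. Des (desmin of muscle) and Kcnmb1 (a potassium channel subunit of smooth muscle) did not pass the filter, at 2.00 and 0.379 FPKM and at 0.633 and 0.737 FPKM in the sheath.

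Some genes of the contractile apparatus were at a few FPKM or less in the outer root sheath. Casq2, which stores calcium inside muscle cells, was at 161 and 209 FPKM in the sheath and at 0.241 and 0.242 in the outer root sheath. Mylk, myosin light chain kinase, was at 133 and 113 against 0.528 and 0.352. Ppp1r14a, an inhibitor of the phosphatase that removes that phosphate, was at 27.3 and 21.3 against 0.775 and 0.351. These 3, with Actg2, had log2 differences of 7.21 ± 0.30, 6.42 ± 0.31, 4.02 ± 0.35 and 6.81 ± 0.31 (SE; limma, adjusted p from 2.38e-07 to 1.58e-05). Myh11, the myosin heavy chain of smooth muscle, was less abundant, at 24.8 and 20.5 against 1.12 and 1.29 (3.42 ± 0.33, adjusted p = 3.02e-05). Weakly expressed members also went this way: Lmod1, leiomodin of smooth muscle filaments, was at 2.71 and 2.35 against 0.284 and 0.149, and Myocd, myocardin itself, was at 1.43 and 1.48 against 0 and 0.0234. Of the 6 smooth muscle genes that were tested but under 1 FPKM in at least 1 library, 5 were higher. Those under 1 FPKM in both outer root sheath libraries could pass the filter only through the sheath.

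Other contractile genes were plainly present in both layers. At a minimum of 5 FPKM in all 4 libraries, 16 of the 29 smooth muscle genes were present in both, of which 6 were higher in the sheath, 1 was lower and 9 were not called. At a minimum of 1 FPKM there were 21, with 10 higher, 1 lower and 10 not called. Myl9, the regulatory light chain of smooth muscle myosin, was at 1037 and 976 FPKM in the sheath and at 81.0 and 105 in the outer root sheath, a log2 difference of 3.43 ± 0.26 (SE; limma, adjusted p = 6.7e-06). Acta2 had a log2 difference of 4.43 ± 0.35 (adjusted p = 8.63e-06). Its 36.7 and 59.1 FPKM in the outer root sheath were above the matrix libraries, the other epithelial population, at 3.33 and 2.43, and near the dermal papilla libraries, at 30.2 and 49.7. Tagln, transgelin of smooth muscle, was at 215 and 221 in the sheath and at 52.0 and 76.1 in the outer root sheath, 29.4% of the sheath mean, while the dermal papilla libraries had 12.4 and 11.1 and the matrix libraries 5.68 and 4.09. Its call was lost without sheath library 1 (1.80, adjusted p = 0.0602) or library 2 (1.76, 0.0555). The outer root sheath thus held more Tagln RNA in both libraries than any library of these other populations.

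The tropomyosins, which lie along the actin filament, were abundant on both sides. Tpm1 was at 1687 and 2014 FPKM in the sheath and at 542 and 815 in the outer root sheath (1.47 ± 0.29, SE; limma, adjusted p = 0.00243), and Tpm2 was at 197 and 184 against 43.4 and 60.9 (1.87 ± 0.27, adjusted p = 0.000355). Tpm4 was at 296 and 443 against 228 and 284 and was not called. Other smooth muscle genes were not called either: Cnn1, calponin 1, was at 9.86 and 10.4 against 5.19 and 7.34, Cald1, caldesmon, at 199 and 317 against 138 and 236, and Smtn, smoothelin, at 94.0 and 61.9 against 81.9 and 78.9. Actn1, which crosslinks actin, was at 57.9 and 62.9 against 44.3 and 46.1. The groups overlapped for Cald1 and Smtn and did not for Cnn1 and Actn1. Filip1l, a filamin-interacting protein, was the smooth muscle list's lower gene, at 34.7 and 44.8 against 90.8 and 154. Without dermal sheath library 1 the calls of Tpm1 (1.60, adjusted p = 0.114), Tpm2 (1.82, 0.0527) and Filip1l (-1.38, 0.131) were lost, and without library 2 those of Tpm1 (1.34, adjusted p = 0.128) and Filip1l (-1.74, 0.0807). Tpm1 was also not called after quantile normalization (0.60, adjusted p = 0.14).

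Among the general actin and myosin genes, 27 of 31 were present in both layers at 5 FPKM, and 9 of these were higher, 1 lower and 17 not called. The cytoplasmic actins were abundant in both layers: Actb was at 2005 and 3046 FPKM against 1332 and 1387, and Actg1 at 741 and 679 against 575 and 559. Neither was called (0.86 ± 0.29 and 0.32 ± 0.25, SE), and Actg1 turned to -0.43 after quantile normalization and to -0.13 with equal FPKM sums. Because the actin genes share long stretches of near-identical sequence, reads may have been split unevenly among Acta2, Actg2, Actb and Actg1, so their levels carry that uncertainty. The myosin heavy chains differed by gene. Myh9 was at 132 and 90.9 against 129 and 126 and not called (-0.22 ± 0.27, and 0.051 without sheath library 2), Myh10 was at 77.9 and 68.9 against 15.03 and 13.8 and higher (2.27 ± 0.27, limma, adjusted p = 0.000101), and Myh14 was at 0.745 and 0.196 against 5.03 and 4.78 and lower (-2.03 ± 0.33, adjusted p = 0.000688, and not called at a pseudocount of 5, -0.86).

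Small actin-binding proteins of the list differed from each other. Tmsb4x and Tmsb10, the thymosins that hold actin monomers, were at 1480 and 1411 against 332 and 319, and at 1077 and 1008 against 157 and 143, and both were higher. Pfn1, profilin, at 522 and 496 against 462 and 312, Cfl1, cofilin, at 308 and 328 against 253 and 223, and Tagln2 at 372 and 408 against 299 and 281 were not called, and all 3 had log2 differences below 0 after quantile normalization. Cnn2 and Cnn3, the calponins of nonmuscle cells, had log2 differences of 2.53 ± 0.25 and 2.62 ± 0.27 (SE; limma, adjusted p = 3.73e-05 and 4.56e-05). Anln, anillin of the cleavage furrow of dividing cells, was in the outer root sheath at 51.5 and 69.2 and in the sheath at 4.21 and 6.26 (-3.30 ± 0.32, adjusted p = 2.94e-05). Ppp1cb, a catalytic subunit of myosin phosphatase, was lower as well, at 11.5 and 23.4 against 62.2 and 88.8, a call that was lost without sheath library 1 (-1.63, adjusted p = 0.0652). The serum response factor gene Srf was at 22.04 and 17.8 against 28.7 and 20.8, and its coactivator genes Mkl1 and Mkl2 were likewise not called.

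**Figure D2:**
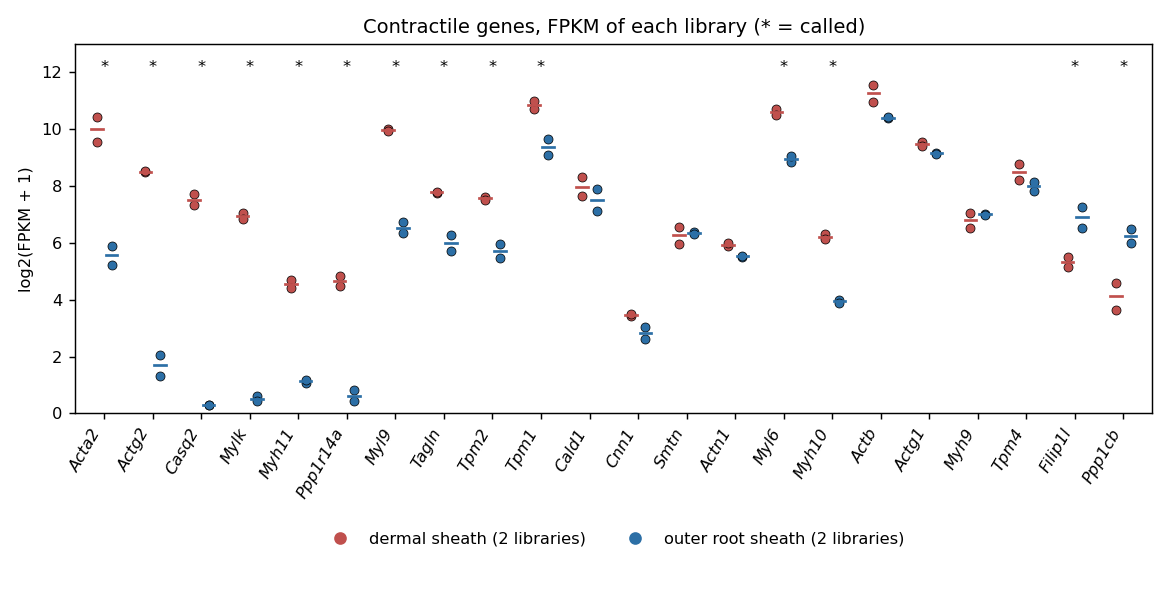
Log2(FPKM + 1) of 22 contractile genes is shown for each library (points) with the mean of 2 libraries (bars), dermal sheath in red and outer root sheath in blue, and an asterisk marks a call. Actg2, Casq2, Mylk, Myh11 and Ppp1r14a are near the axis in the outer root sheath, Acta2, Myl9, Tagln, Tpm1 and Tpm2 are high in both layers and higher in the sheath, and the points of Cald1, Smtn and Myh9 overlap.

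The CArG boxes of contractile promoters are shown for 3 genes that stand for different patterns above: Acta2 and Myl9, present in both layers and higher in the sheath, and Actg1, present in both and not called. Each line gives RefSeq sequence of GRCm38.p6, the assembly also called mm10, from 250 bases before the start site to 50 bases from it, on the gene's strand, with boxes in capitals. A box here is CCNNNNNNGG with at least 5 of its 6 middle bases A or T, a pattern that reads as such on both strands.
Acta2 promoter, chr19:34255324-34255623, minus strand: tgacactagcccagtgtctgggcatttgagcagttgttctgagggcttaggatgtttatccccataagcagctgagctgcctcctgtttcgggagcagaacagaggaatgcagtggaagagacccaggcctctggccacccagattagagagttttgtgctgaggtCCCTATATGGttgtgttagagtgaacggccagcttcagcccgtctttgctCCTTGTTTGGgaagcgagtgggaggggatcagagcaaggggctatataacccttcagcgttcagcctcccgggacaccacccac
Myl9 promoter, chr2:156775214-156775513, plus strand: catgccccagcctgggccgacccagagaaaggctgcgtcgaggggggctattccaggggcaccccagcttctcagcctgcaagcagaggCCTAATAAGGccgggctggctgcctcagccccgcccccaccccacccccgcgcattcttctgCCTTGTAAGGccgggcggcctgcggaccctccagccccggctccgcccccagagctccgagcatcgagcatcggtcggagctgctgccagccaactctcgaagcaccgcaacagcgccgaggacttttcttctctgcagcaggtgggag
Actg1 promoter, chr11:120348446-120348745, minus strand: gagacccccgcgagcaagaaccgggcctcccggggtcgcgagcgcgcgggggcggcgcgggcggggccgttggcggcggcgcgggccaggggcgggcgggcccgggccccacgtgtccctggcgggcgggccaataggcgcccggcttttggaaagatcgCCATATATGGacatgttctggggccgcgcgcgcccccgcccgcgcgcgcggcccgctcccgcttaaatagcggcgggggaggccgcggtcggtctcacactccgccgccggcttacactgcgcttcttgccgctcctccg
The Acta2 promoter held CCCTATATGG and CCTTGTTTGG, beginning 84 and 34 bases before the start site. Myl9 held CCTAATAAGG and CCTTGTAAGG at 161 and 99 bases before it, and Actg1 held CCATATATGG at 90 bases before it. A match is a description of these letters and not evidence of binding. Such a box was in 9.98% of the 32851 promoters of the table, in 10.7% of the 9256 tested genes with a promoter, in 12.6% of called higher genes and in 10.6% of called lower genes. It was in 6 of the 22 smooth muscle contractile genes with a promoter (27.3%) and in 6 of the 27 general actin and myosin genes (22.2%). The smooth muscle genes were Acta2, Myl9, Pdlim3, Synm, Filip1l and Srf. Among them Acta2, Myl9 and Pdlim3 were higher, Filip1l was lower and Srf was not called. Of the general genes, Myl6, Myl12a and Cnn2 were higher, and Actg1, Tpm3 and Vasp were not called. The windows of Casq2, Mylk, Cnn1, Tpm1 and Tpm2 did not hold these letters, which says nothing of the factor.

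Of 29 calcium handling genes listed, 21 were tested, and 10 were higher, 1 lower and 10 not called (median 0.56). The background was 22.9% higher and 18.9% lower over all tested genes. Besides Casq2, the sheath had more Itpr1, a receptor that releases calcium from stores (20.9 and 24.9 FPKM against 2.40 and 1.89), Cacna1c, the pore of the L-type calcium channel (7.55 and 7.24 against 0.475 and 0.192), and Slc8a1, a sodium-calcium exchanger (4.04 and 9.87 against 0.0854 and 0.115). Their log2 differences were 2.92 ± 0.33, 2.66 ± 0.32 and 2.75 ± 0.39 (SE; limma, adjusted p from 7.34e-05 to 0.00033). Atp2a2, the pump that refills the stores, was at 89.8 and 111 against 113 and 99.2 and was not called. Itpr3 was the lower one, at 8.51 and 7.08 against 20.9 and 14.9, and its call was lost when any one of sheath library 1 (-1.21, adjusted p = 0.11), sheath library 2 (-0.98, 0.129) or outer root sheath library 1 (-0.86, 0.206) was left out.

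The vasoactive list holds receptors, ligands and enzymes of agents that tighten or relax vessels. Of 30 genes listed, 17 were tested, of which 10 were higher, 4 lower and 3 not called (median 1.86), and 1 was lower without sheath library 1. Ednra and Ednrb, the receptors for endothelins, were at 193 and 271 FPKM against 0.507 and 0.779, and at 695 and 1272 against 1.41 and 0.604 (log2 7.13 ± 0.31 and 8.90 ± 0.35, SE; limma, adjusted p = 2.73e-07 and 1.61e-07). The endothelin genes were split: Edn3 was in the sheath, at 18.1 and 31.5 against 0.0308 and 0.445, while Edn1 was at 1.40 and 2.82 against 9.24 and 8.10 and Edn2 at 0.144 and 0.569 against 4.93 and 11.02. The calls of Edn1 (-1.34, adjusted p = 0.0792) and Edn2 (-2.43, 0.0902) were lost without sheath library 1, and that of Edn2 also without library 2 (-2.88, 0.0608). Ece1, which cleaves the endothelin precursors, was at 122 and 115 against 110 and 97.5 and was not called. Ptger3, a prostaglandin E2 receptor, and Npr2, the receptor for C-type natriuretic peptide, were higher in the sheath (4.24 ± 0.33 and 4.03 ± 0.32). Ptger4, another prostaglandin E2 receptor, was lower, at 1.93 and 2.40 against 9.94 and 11.04, a call lost without sheath library 1 (-1.75, adjusted p = 0.0522). Ptgs2, the inducible enzyme of prostaglandin synthesis, was at 0.211 and 0.572 in the sheath and at 8.36 and 9.71 in the outer root sheath (-2.86 ± 0.33, adjusted p = 8.55e-05).

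The basement membrane list was divided between the layers chain by chain. Of 36 genes listed, 35 were tested, and 12 were higher in the sheath, 14 were lower and 9 were not called, with a median log2 difference of 0.10. The 34.3% higher and 40.0% lower stood beside 22.9% and 18.9% over all tested genes. Laminin is a trimer of an alpha, a beta and a gamma chain. Lama3 and Lamb3, chains of the laminin to which hemidesmosomes attach, were at 0.774 and 0.487 FPKM against 35.4 and 33.3 and at 3.53 and 4.12 against 16.0 and 15.2. Lama5, the alpha chain most epithelial basement membranes carry, was also lower in the sheath, at 3.38 and 1.34 against 70.2 and 55.2. Their log2 differences ran from -4.44 ± 0.33 to -1.78 ± 0.32 (SE; limma, adjusted p from 6.35e-06 to 0.00136).

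Other chains were higher in the sheath. Lama2, the chain of the muscle basement membrane, was at 134 and 170 FPKM against 0.0258 and 0.223, Lama4, known from vessels, at 24.1 and 21.9 against 2.07 and 1.55, and Lamc3, a gamma chain, at 42.4 and 32.4 against 0.203 and 0.448. The widely used chains Lamb1 and Lamc1 were at 112 and 114 against 88.2 and 86.5 and at 106 and 117 against 146 and 147, and neither was called. So each layer had high alpha-chain RNA of its own beside Lamb1 and Lamc1 RNA that was not called.

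Type IV collagen was divided too. Col4a1 and Col4a2, the common pair of chains, were at 408 and 300 FPKM against 81.4 and 61.6 and at 494 and 315 against 63.8 and 50.1 (2.29 ± 0.28 and 2.78 ± 0.29, SE; limma, adjusted p = 0.000115 and 5.02e-05). Col4a6 was lower in the sheath, at 0.562 and 0.433 against 6.66 and 5.39 (-2.23 ± 0.31, adjusted p = 0.000311). The nidogens, which link laminin to collagen, were higher in the sheath: Nid1 was at 571 and 681 against 1.54 and 2.06, and Nid2 at 196 and 205 against 0.180 and 0.167. Col15a1, a collagen of the outer face of basement membranes, was at 174 and 142 against 0.110 and 0.327. In the other direction Col17a1, the transmembrane collagen of hemidesmosomes, was at 2.85 and 2.50 against 109 and 107, and Agrn, the proteoglycan agrin, was at 15.1 and 9.73 against 119 and 91.8. Hspg2, perlecan, was at 84.2 and 53.8 against 77.3 and 51.1 and not called. Col7a1, the anchoring fibril collagen, was at 15.03 and 8.79 against 5.90 and 5.00 and missed the call (0.96 ± 0.36, adjusted p = 0.0498), and it was called after scaling to equal medians (1.05).

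The integrins, the receptors that grip these matrices, were divided the same way. Of 18 genes listed, 16 were tested, and 8 were higher, 7 lower and 1 not called. The epithelial side had Itga6 and Itgb4, the hemidesmosome pair, at 12.7 and 12.3 FPKM in the sheath against 72.1 and 75.4 and at 2.41 and 1.31 against 56.7 and 40.0 (-2.47 ± 0.27 and -4.12 ± 0.35, SE; limma, adjusted p = 5.73e-05 and 1.51e-05). It also had Itga3, the alpha chain of another receptor for that laminin (1.71 and 1.20 against 47.8 and 38.5), and Itgb6, which with alpha-v activates TGF-beta (0.284 and 0.299 against 27.6 and 34.2). The sheath had Itga11, a collagen receptor (171 and 143 against 0.348 and 0.330), Itgb3 (73.7 and 76.9 against 0.0676 and 0.0800), Itga8 (16.9 and 32.1 against 0.264 and 0.260) and Itga5, the fibronectin receptor (39.1 and 33.9 against 3.97 and 2.46). Itgb1, the beta chain that most of these alpha chains pair with, was at 211 and 391 against 79.7 and 123 and was called higher (1.53 ± 0.34, adjusted p = 0.0048), but not without sheath library 1 (1.97, 0.062) or library 2 (1.09, 0.128). Itgav was at 20.1 and 42.0 against 14.7 and 16.1 and was not called.

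**Figure D3:**
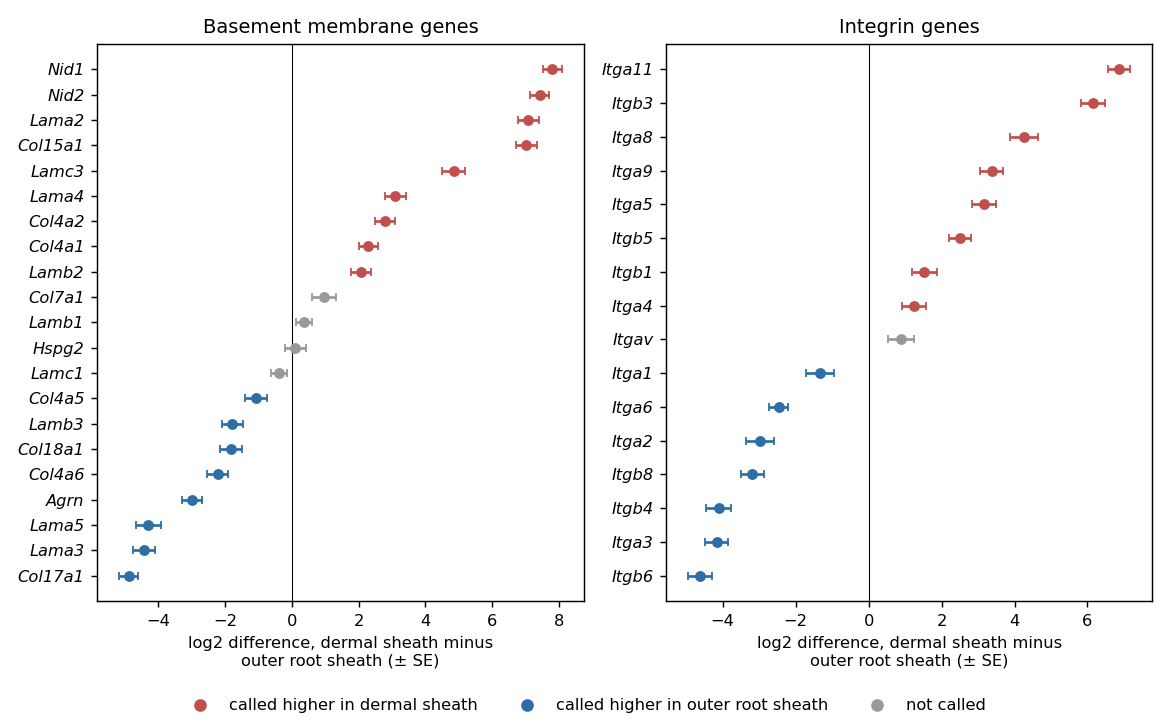
The log2 difference, dermal sheath minus outer root sheath, with its SE from limma (2 libraries against 2), is shown for 21 of the 35 tested basement membrane genes (left) and for all 16 tested integrin genes (right). Nid1, Nid2, Lama2, Col15a1, Itga11 and Itgb3 lie above 6, Col17a1, Lama3, Lama5, Itgb6 and Itga3 lie below -4, and Lamb1, Lamc1, Hspg2, Col7a1 and Itgav were not called.

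Of 24 adhesion plaque genes, all tested, 12 were higher, 5 lower and 7 not called (median 0.83), and the count of higher genes was 6 with equal FPKM sums, 7 after quantile normalization, 5 without sheath library 1 and 6 without sheath library 2. Kank2, which couples talin to the cell cortex, was at 218 and 166 FPKM against 5.42 and 5.78, and Lims2, a partner of integrin-linked kinase, was at 60.5 and 50.8 against 0 and 0.0755. Fermt1, the keratinocyte form of the integrin activator kindlin, was at 0.452 and 0.824 against 30.5 and 36.3 (-4.40 ± 0.34, SE; limma, adjusted p = 7.57e-06). Dst, whose epithelial form ties hemidesmosomes to keratins, was at 24.6 and 23.4 against 63.9 and 75.4, and Bcam, a laminin receptor, was at 15.1 and 9.38 against 151 and 120. Zyx and Tln1, zyxin and talin of focal adhesions, were not called.

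Cell-cell contacts followed tissue type. Of 33 epithelial junction genes, 30 were tested, and 26 were lower in the sheath, none was higher and 4 were not called (median -3.31). Cdh1, E-cadherin, was at 5.61 and 7.42 FPKM against 122 and 123, and Cdh3, P-cadherin, at 4.67 and 3.999 against 123 and 125. Dsc3, a desmosomal cadherin, was at 3.83 and 5.71 against 130 and 143, and Gjb2, a gap junction connexin, at 11.5 and 17.4 against 315 and 515. Jup, plakoglobin, and Tjp1, of tight junctions, were not called, at 53.5 and 51.0 against 66.0 and 53.1 and at 28.4 and 40.1 against 34.9 and 35.7. Of 20 mesenchymal adhesion genes, 14 were higher, 3 lower and 3 not called (median 2.27). Cdh11, the cadherin of connective tissue, was at 256 and 471 against 0.218 and 0.667, and Cdh13 at 201 and 216 against 4.49 and 3.11. Tnc, tenascin-C, went the other way, at 7.14 and 5.69 against 107 and 111 (-3.89 ± 0.28, SE; limma, adjusted p = 5.01e-06), as did Alcam, a cell adhesion molecule (-3.94 ± 0.34, adjusted p = 1.55e-05). Postn, periostin, was at 1454 and 1875 against 41.5 and 127, and its call was lost without sheath library 1 (4.67, adjusted p = 0.0594) or library 2 (4.30, 0.059).

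RNA of the fibrous matrix was on the mesenchymal side. Of 42 fibrillar and tendon matrix genes, 41 were tested, and 37 were higher, 2 lower and 2 not called (median 4.67). Elastic fibre genes were among them: Eln, elastin, was at 233 and 184 FPKM against 1.14 and 0.437, Fbn1, fibrillin 1, at 340 and 377 against 3.26 and 5.55, and Mfap5 at 270 and 382 while listed at 0 in both outer root sheath libraries. Small proteoglycans that space collagen fibrils were also higher, Bgn, biglycan, at 2884 and 3424 against 201 and 174 and Dcn, decorin, at 583 and 825 against 98.0 and 54.0. Scx, the tendon transcription factor scleraxis, was lower in the sheath, at 1.16 and 0.371 against 6.04 and 6.88, although not at a pseudocount of 5 (-0.99). Sparc, a secreted collagen-binding protein, was also called lower, at 49.4 and 54.7 in the outer root sheath and a listed value of 0 in each sheath library. Such a 0 can be a failed estimate, since Malat1, a nuclear RNA found in nearly all cells, was likewise at 0 in each sheath library against 2634 and 4217, so no fold is given for either. Col14a1, a collagen on fibril surfaces, was at 56.5 and 61.4 against 51.5 and 55.8 and was not called. Without the members listed at 0 in both libraries of a layer, the median of the fibrillar and tendon matrix list was 4.98.

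Enzymes that cut matrix were mostly in the sheath. Of 26 listed, 23 were tested, and 18 were higher, 2 lower and 3 not called (median 2.81). Mmp2 and Mmp14, the gelatinase and its membrane-bound activator, were at 125 and 111 FPKM against 6.47 and 6.93 and at 217 and 163 against 43.6 and 31.2. Adamts2, which trims procollagen, was at 78.8 and 51.7 against 0.259 and 0.599, and Adamts18 at 103 and 87.2 against 0.921 and 0.216. The inhibitors split: Timp2 was higher in the sheath, at 325 and 371 against 51.6 and 55.2, and Timp3 lower, at 82.1 and 125 against 428 and 496 (-2.17 ± 0.28, SE; limma, adjusted p = 0.000175). Adamts20 was the other lower gene, at 2.38 and 3.89 against 27.1 and 41.6.

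Transcription factors marked the same boundary. Of 32 mesenchymal factors listed, 25 were tested, and 19 were higher, 3 lower and 3 not called (median 4.35), with fewer lower without sheath library 1. Only 8 of the 32 were at 1 FPKM or more in all 4 libraries. In both outer root sheath libraries 6 tested factors were listed at 0, so these passed the filter only through the sheath. Without those 6 the median was 2.99. Tbx15 was at 302 and 342 FPKM against 0 and 0.166, Prrx1 at 93.4 and 178 against 0.138 and 0.229, and Ebf1 at 82.6 and 71.6 against 0.332 and 0.493. Twist2, Prrx2, Tbx18 and Osr1 were listed at 0 in both outer root sheath libraries, at 81.8 and 66.6, 136 and 63.1, 22.8 and 29.3, and 36.5 and 25.0 in the sheath. Msx2 was lower, at 3.36 and 7.80 against 30.8 and 31.0. Snai2, also lower, was at 10.4 and 24.7 against 42.7 and 56.7. Its call was lost without sheath library 1 (-0.97) and with no filter on low values (limma, adjusted p = 0.0553). The third lower gene, Foxp1, lost its call without sheath library 1 (-0.63), sheath library 2 (-1.41), outer root sheath library 1 (-1.21) or outer root sheath library 2 (-0.83).

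Of 26 genes listed for the outer root sheath and its stem cells, 24 were tested, and 14 were lower in the dermal sheath, 5 higher and 5 not called (median -1.72). Nfib, a factor of follicle stem cells, was at 7.10 and 12.8 FPKM against 198 and 258, and Barx2 and Irx4, homeobox factors, had log2 differences of -3.69 ± 0.34 and -4.27 ± 0.35 (SE; limma, adjusted p = 2.16e-05 and 1.12e-05). Sox9, which the outer root sheath needs, was at 5.08 and 12.2 against 60.4 and 101 (-3.14 ± 0.41, adjusted p = 0.00018, and -2.58 with 0.0504 without sheath library 1). The 5 higher genes were Cd34, Cd200, Tcf7l1, Tcf7l2 and Dkk3. Cd34 and Cd200, surface proteins used to sort bulge cells in adult follicles, were at 33.2 and 38.9 against 2.24 and 6.31 and at 118 and 183 against 18.0 and 33.2. All 5 calls were lost without at least 1 of the sheath libraries. Without library 1 those of Cd34 (3.03, adjusted p = 0.0782), Cd200 (2.85, 0.0525) and Tcf7l1 (0.94, 0.0647) were lost, and without library 2 those of Cd34 (2.81, 0.0763), Cd200 (2.22, 0.0659), Tcf7l2 (0.95, 0.089) and Dkk3 (1.06, 0.0541). With equal FPKM sums Tcf7l1 (0.57), Tcf7l2 (0.97) and Dkk3 (0.72) also fell under the log2 threshold.

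**Figure D4:**
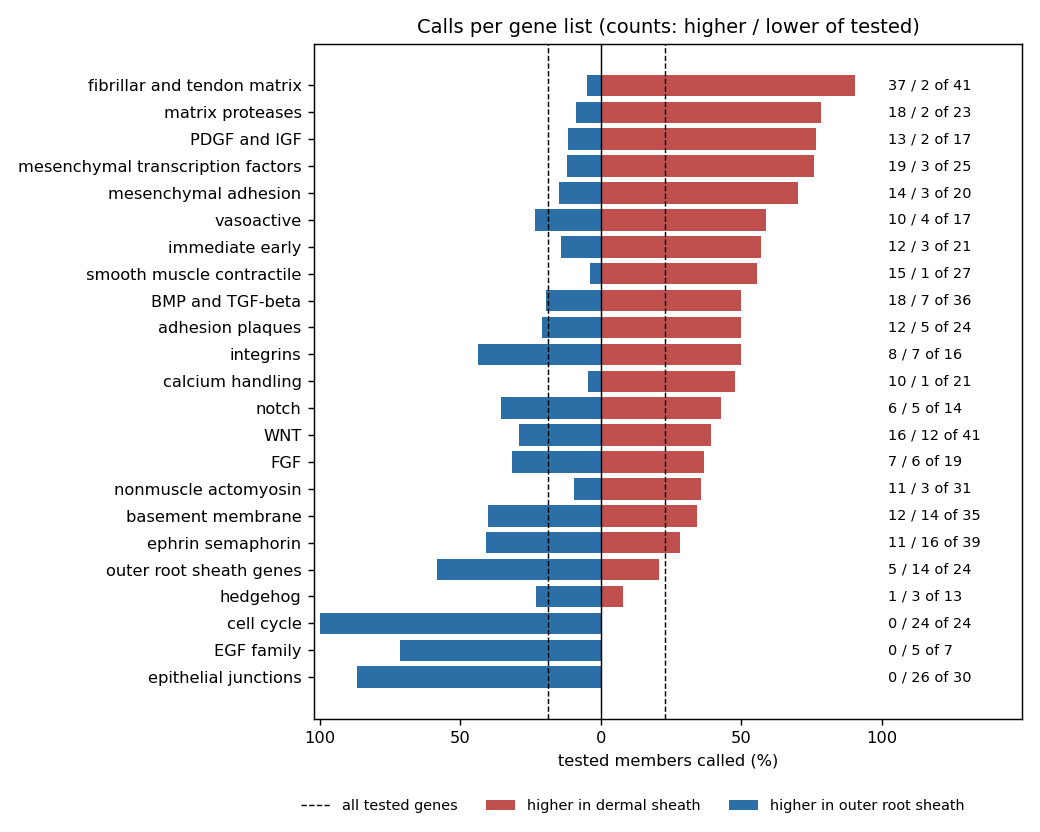
For each of 23 gene lists, bars give the percentage of tested members called higher in the dermal sheath (red, right) or in the outer root sheath (blue, left), with the counts beside them and dashed lines at 22.9% and 18.9%, the values over all tested genes. Fibrillar matrix (37 of 41) and matrix proteases (18 of 23) fall to the right, epithelial junctions (26 of 30) and cell cycle genes (24 of 24) to the left, and basement membrane and integrin genes to both sides.

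Ligands and receptors are given next by pathway, and their counts are to be read beside 22.9% higher and 18.9% lower of all tested genes. For platelet-derived growth factors, Pdgfa was at 18.4 and 7.595 FPKM in the sheath against 182 and 139 in the outer root sheath, and Pdgfb at 0.941 and 0.304 against 7.98 and 5.75. The receptors Pdgfra and Pdgfrb were at 177 and 236 against 0.208 and 0.316 and at 56.1 and 39.2 against 0.246 and 0.407 (7.35 ± 0.31 and 5.18 ± 0.34, SE; limma, adjusted p = 2.16e-07 and 3.46e-06). Pdgfc and Pdgfd were in the sheath beside the receptors, at 6.20 and 4.72 against 1.39 and 1.45 and at 6.69 and 10.6 against 0.145 and 0.282. Of the 17 genes listed for this family and for insulin-like growth factors, all tested, 13 were higher, 2 lower and 2 not called (median 2.96). The binding proteins Igfbp2 to Igfbp7 were all higher in the sheath, with Igfbp2 at 851 and 460 against 2.91 and 2.0995, while the receptor Igf1r was at 27.0 and 33.2 against 43.7 and 49.4 and not called.

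Several fibroblast growth factors were higher in the sheath and some of their receptors in the outer root sheath. The sheath had Fgf7 (14.4 and 41.5 FPKM against 0.0255 and 0.226) and Fgf10 (9.15 and 17.7 against 0.0151 and 0.179), ligands that signal to an epithelial form of Fgfr2, and Fgf18 (75.0 and 63.9 against 0.378 and 0.128). The receptors Fgfr2 and Fgfr3 were at 27.97 and 28.97 against 137 and 118 and at 5.07 and 4.53 against 38.8 and 32.5 (-2.12 ± 0.25 and -2.66 ± 0.30, SE; limma, adjusted p = 0.000113 and 8.12e-05), and Fgfr1 was not called, at 50.4 and 56.6 against 55.9 and 43.5. Fgf5, which ends hair growth in mice, was in the outer root sheath, at 0.245 and 0.705 in the sheath against 11.4 and 20.8. Etv4, a target of FGF signalling, was lower in the sheath, at 0.937 and 0.737 against 12.5 and 13.4. Of 23 genes listed, 19 were tested, with 7 higher, 6 lower and 6 not called (median 0.11).

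In the WNT pathway R-spondins and their receptors were highest in opposite layers. Of 47 genes listed, 41 were tested, with 16 higher, 12 lower and 13 not called (median 0.03). The R-spondins, secreted proteins that raise WNT signalling through LGR receptors, were in the sheath: Rspo1 was at 56.2 and 42.2 FPKM against 1.87 and 0.962 and Rspo3 at 33.1 and 70.8 against 0.265 and 0.714. Lgr5 and Lgr4 were in the outer root sheath, at 6.87 and 8.42 in the sheath against 93.9 and 102 and at 14.3 and 20.6 against 63.9 and 52.7. Rnf43, the ubiquitin ligase that R-spondins counter, was at 0.283 and 0.334 against 12.8 and 8.34. The receptors Fzd5, Fzd6 and Fzd7 were lower in the sheath (-3.81 ± 0.30, -3.32 ± 0.33 and -2.03 ± 0.28, SE; limma, adjusted p from 8.39e-06 to 0.000248). Secreted antagonists went both ways. Sfrp2 was higher in the sheath, at 23.8 and 24.4 against 0.303 and 0.249, and so was Dkk2, at 8.34 and 8.56 while listed at 0 in the outer root sheath. Sfrp1 was at 36.2 and 44.4 against 117 and 153, a lower call lost without sheath library 1 (-1.57, adjusted p = 0.0528). Counts in this list moved with the settings, to 10 higher and 6 lower at a pseudocount of 5, to 4 lower without sheath library 1, to 5 without sheath library 2 and to 7 without outer root sheath library 1.

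Of 42 BMP and TGF-beta genes listed, 36 were tested, with 18 higher, 7 lower and 11 not called (median 1.08). Without sheath library 1 the counts were 11 higher and 2 lower, and without library 2 4 were lower. Bmp3 was at 65.3 and 86.3 FPKM against 1.08 and 0.0384, Inhba, the activin A subunit, at 120 and 89.1 against 1.97 and 4.48, and Fstl1, a secreted follistatin-like protein, at 1503 and 2023 against 101 and 143. Nog, the BMP antagonist noggin, was at 14.1 and 13.1 while listed at 0 in both outer root sheath libraries. Tgfbr2, the TGF-beta type II receptor, was at 127 and 149 against 14.8 and 6.51 (3.67 ± 0.36, SE; limma, adjusted p = 3.26e-05). Fst, follistatin, which binds activins, was lower in the sheath, at 4.12 and 6.00 against 19.7 and 22.4, as was the activin receptor Acvr2a, at 3.29 and 7.18 against 25.6 and 30.0. Bmpr1a, Bmpr2 and Tgfbr1 were not called.

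Of 18 Notch genes listed, 14 were tested, with 6 higher, 5 lower and 3 not called (median 0.51). Without either sheath library alone 3 were lower. Jag2, a ligand, was at 2.16 and 0.865 FPKM against 52.2 and 39.9, and the receptor Notch1 at 9.35 and 5.66 against 33.3 and 30.3 (-4.27 ± 0.36 and -1.98 ± 0.32, SE; limma, adjusted p = 1.53e-05 and 0.000794). Target genes went both ways: Hes1 and Hey1 were higher in the sheath, at 79.8 and 77.3 against 25.6 and 22.7 and at 12.8 and 13.8 against 0.727 and 0.224, while Nrarp was lower, at 3.98 and 2.23 against 24.3 and 14.4, a call lost without sheath library 1 (-2.61, adjusted p = 0.0557) or library 2 (-1.98, 0.0707). The receptor Notch2 was higher too, at 40.9 and 37.3 against 14.8 and 12.01, although not called without sheath library 1 (1.42, adjusted p = 0.0579). Jag1 was at 21.0 and 27.9 against 36.6 and 49.1 and was not called (limma, adjusted p = 0.051), its log2 difference also being under 1 in size.

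Of 15 hedgehog genes listed, 13 were tested, with 1 higher, 3 lower and 9 not called (median -0.29), beside 22.9% higher and 18.9% lower of all tested genes, and the lower genes were 5 with equal FPKM sums, 1 without sheath library 2 and none without library 1. Gli1, a target of the pathway, was at 62.9 and 39.0 FPKM against 37.4 and 26.1, Ptch1, receptor and target, at 97.4 and 78.6 against 214 and 144, and Smo at 50.7 and 30.0 against 74.1 and 47.3. The ligand Shh was at 0.234 and 0.398 against 4.07 and 2.09, and its call was lost without sheath library 1 (-1.50, adjusted p = 0.107) or library 2 (-1.68, 0.0778). Hhip, a decoy receptor and target, was the higher gene, at 11.5 and 22.3 against 0.242 and 0.377 (3.71 ± 0.38, SE; limma, adjusted p = 4.57e-05).

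Of 14 EGF family genes listed only 7 were tested, with 5 lower and 2 not called (median -1.41), of which 2 were lower without either sheath library alone and 3 without outer root sheath library 1. Egfr, their receptor, was at 28.9 and 33.7 FPKM against 93.7 and 112 (-1.68 ± 0.26, SE; limma, adjusted p = 0.000579). Guidance molecules were called in both directions, with 11 higher, 16 lower and 12 not called of 39 tested from 41 listed (median -0.22). Fewer were lower without sheath library 1 or 2. The 28.2% higher was near the 22.9% over all tested genes, and the 41.0% lower stood beside 18.9%. Sema3e was at 0.186 and 0.367 against 20.8 and 29.7, while Sema3d was at 14.8 and 30.9 against 0.339 and 0.229 and Epha3 at 21.2 and 31.6 while listed at 0 in the outer root sheath.

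**Figure D5:**
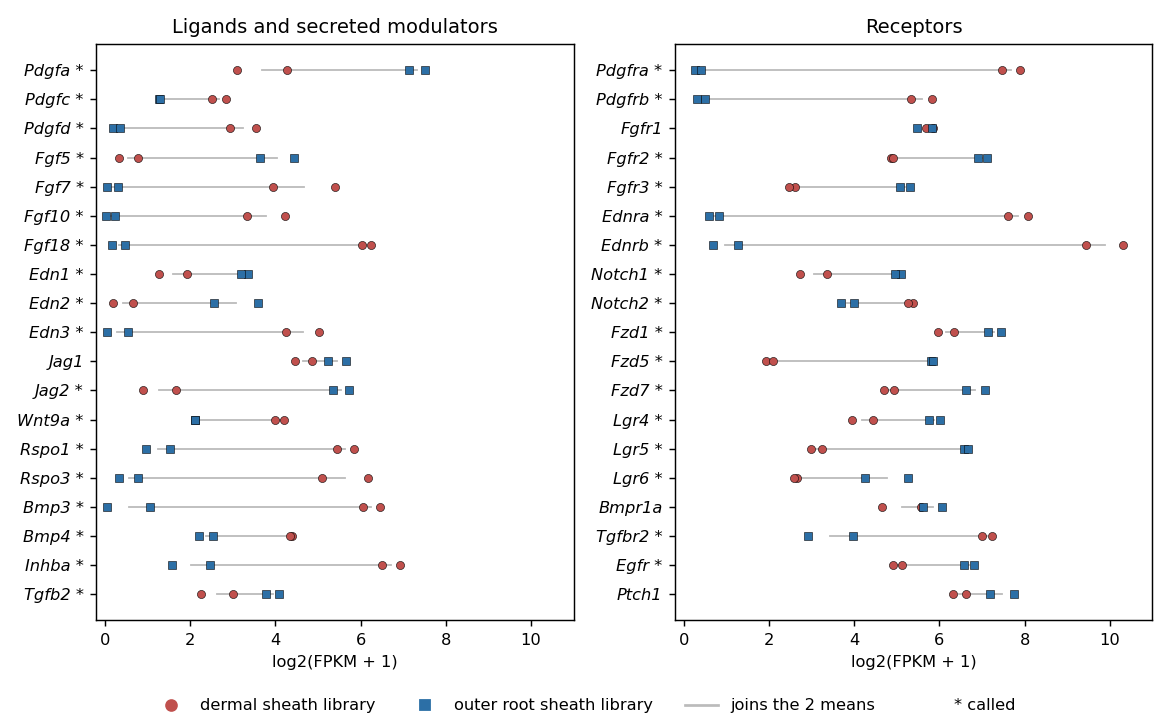
Log2(FPKM + 1) of 19 ligands and secreted modulators (left) and 19 receptors (right) is shown for each of the 2 dermal sheath libraries (red circles) and 2 outer root sheath libraries (blue squares), with a grey line between the means and an asterisk for a call. Pdgfa lies to the right in the outer root sheath while Pdgfra and Pdgfrb do so in the sheath, and Fgf7, Fgf10, Fgf18, Rspo1 and Rspo3 lie to the right in the sheath while Fgfr2, Fgfr3 and Lgr4 to Lgr6 do so in the outer root sheath. The call of Lgr6 was lost without sheath library 1 (-2.17) or library 2 (-2.10).

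Proliferation genes were lower in the sheath throughout the list. All 24 cell cycle genes were tested and all 24 were called lower, with a median log2 difference of -2.86. Mki67, the proliferation antigen, was at 14.5 and 16.2 FPKM against 244 and 237, and Top2a, topoisomerase of dividing cells, at 9.89 and 13.2 against 190 and 199 (-3.89 ± 0.25 and -3.97 ± 0.27, SE; limma, adjusted p = 2.99e-06 and 3.96e-06). Anln, above, is also a gene of dividing cells. Within these calls, Ccne1 (-1.27, adjusted p = 0.0774) and Ccne2 (-1.61, 0.15) lost theirs without sheath library 1, and Ccne2 also without library 2 (-1.99, 0.0948).

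Immediate early genes, which also respond to tissue dissociation, differed between layers and in both directions. Of 22 listed, 21 were tested, with 12 higher, 3 lower and 6 not called (median 1.26), and without either sheath library alone 7 were higher and 1 was lower. Without library 2 that lower gene was Btg2 (-1.21, adjusted p = 0.0464), which was not called with all 4 libraries, and Egr2, Egr3 and Atf3 lost their lower calls. Klf2 was at 91.1 and 74.2 FPKM against 1.06 and 0.833, Klf4 at 148 and 161 against 16.4 and 12.2, and Dusp1, a phosphatase of MAP kinases, at 312 and 332 against 61.2 and 42.8. Egr3 was lower, at 5.07 and 2.52 against 51.3 and 27.0, and not called without sheath library 2 (-2.66, adjusted p = 0.0569). Egr1 and Jun were high in both layers and not called, at 594 and 710 against 511 and 448 and at 190 and 215 against 245 and 148. The part of dissociation in these values was not tested.

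Markers of other cell types were measured in both layers, and several lists were higher in the sheath. Over all tested genes 22.9% were higher and 18.9% lower. Of 10 tested macrophage genes (14 listed) 9 were higher in the sheath, 1 was not called, and the list summed to 68.6 and 51.3 FPKM against 3.54 and 4.11. Only 1 macrophage gene was at 1 FPKM or more in all 4 libraries, and 4 tested ones were listed at 0 in both outer root sheath libraries. Lyz2, lysozyme, was at 14.3 and 12.11 against 0 and 0.132. Ptprc, the leukocyte antigen CD45, was at 0.0770 and 0.164 in the sheath. All 4 tested mast cell genes were higher (12 lymphocyte and mast cell genes listed, sums 16.4 and 16.5 against 0.302 and 0.864), with Cma1, mast cell chymase, at 6.30 and 7.14 against 0 in both. All 4 were listed at 0 in both outer root sheath libraries, so they passed the filter only through the sheath and could not be called lower. Of 6 tested endothelial genes (12 listed) 3 were higher and 3 not called, with sums of 41.3 and 35.0 against 12.2 and 12.3, and Pecam1, the vessel marker CD31, was at 3.07 and 0.741 against 1.002 and 0.953. Erg, an endothelial transcription factor, was at 17.4 and 20.3 against 0.399 and 0.556. The calls of Tek and Plvap were lost without sheath library 1 (1.11, adjusted p = 0.223, and 0.80, 0.384) or library 2 (1.05, adjusted p = 0.215, and 1.41, 0.173), that of Tek without outer root sheath library 1 (0.66, 0.358) and that of Plvap without library 2 (0.55, 0.346). Of 6 tested pericyte genes (10 listed) 3 were higher, 1 lower and 2 not called. Their sums were 254 and 227 against 130 and 162, Rgs5 was at 13.4 and 14.4 against 0.588 and 1.19, and Kcnj8, a defining pericyte channel, was at 0.0294 and 0.0247 in the sheath and at 0 in the outer root sheath.

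Of 7 tested Schwann cell genes (10 listed) 2 were higher, 2 lower and 3 not called, with sums of 27.7 and 29.7 FPKM against 27.7 and 28.4. Sox10, a transcription factor of neural crest derivatives, did not pass the filter, at 1.09 and 0.860 FPKM against 0.275 and 0.178. Melanocyte genes were low in both layers, with 1 higher and 9 not called of 10 tested (12 listed), and sums of 50.01 and 40.6 against 35.5 and 33.1. Of 3 tested adipocyte genes (9 listed) 2 were higher, Fabp4 and Lpl, and 1 was not called, with sums of 128 and 109 against 20.6 and 20.7, and Adipoq, adiponectin, was listed at 0 in all 4 libraries. Of 4 tested skeletal muscle genes (12 listed) 2 were higher, 1 lower and 1 not called, with sums of 8.44 and 6.98 against 10.5 and 9.31, and Ckm, muscle creatine kinase, was listed at 0 in all 4. The erythroid list had 1 tested gene, Alas2, which was lower at 1.27 and 1.63 against 5.86 and 4.22. Hair matrix and inner sheath genes were on the epithelial side, with 11 lower, 1 higher and 3 not called of 15 tested (16 listed, sums 127 and 116 against 439 and 364), and 6 and 4 lower without sheath library 1 and 2. Differentiated epidermis genes had 5 lower, 1 higher and 4 not called of 10 tested (12 listed, sums 110 and 58.7 against 224 and 159), and 3 and 2 lower without sheath library 1 and 2. Leaving out either sheath library ended the calls of Mlana (melanocyte list, 1.49 and 1.99 without library 1 and 2), Steap4 (pericyte list, -1.75 and -2.14), Alas2 (-1.18 and -1.40), Ngfr (Schwann cell list, -1.73 and -1.12) and Krt35 (hair matrix list, 1.35 and 1.93). Outer root sheath library 1 was also needed for Krt35 (1.13 without it) and library 2 for Ngfr (-1.18). The part of these cells in the differences above was not tested.

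Genes listed for the other dermal populations were also high in the sheath. Of 18 dermal papilla genes, all tested, 16 were higher and 2 lower (none lower without sheath library 1, and 1 without sheath library 2 or outer root sheath library 1), with sums of 554 and 692 FPKM against 127 and 133, and Corin was at 61.9 and 107 against 0.164 and 0.198. Of 15 dermal fibroblast genes, all tested, 12 were higher, 1 lower and 2 not called, with sums of 1609 and 2082 against 214 and 150. Dpp4, a surface peptidase of fibroblasts, was the lower one, at 0.575 and 0.532 against 6.21 and 5.38. Only 3 of the papilla genes and 4 of the fibroblast genes were at 1 FPKM or more in all 4 libraries. In both outer root sheath libraries 2 and 3 of them were listed at 0. Those at 0 passed the filter only through the sheath and could not be called lower. Over all tested genes, 22.9% were higher and 18.9% lower.

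The same contrast of mesenchyme and epithelium was measured in dermal papilla against matrix, in libraries that share none with the sheath comparison. There 3154 of 12798 tested genes were higher in the papilla (24.6%) and 2383 lower (18.6%), 43.3% in all. Of the genes higher in the dermal sheath, 1845 were also higher in the papilla, 64.0% of the sheath list and 58.5% of the papilla list, and 38 went the other way. Of the lower genes, 1535 were shared, 64.3% and 64.4% of the lists, and 63 went the other way. The difference of the 2 contrasts was tested for 13529 genes, and 13.1% were called: in 789 (5.83%) the sheath contrast lay above the papilla contrast, and in 985 (7.28%) below.

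Of 27 smooth muscle genes tested for this difference, 6 were called above and 1 below. Casq2 was at 3.30 and 4.83 FPKM in the papilla, and its papilla-matrix difference of 1.95 was smaller than its sheath difference by 5.27 ± 0.43 (SE; limma, adjusted p = 0.000243). Mylk was at 9.32 and 8.20 in the papilla, a gap of 4.52 ± 0.39 (adjusted p = 0.000263), and Actg2 at 12.2 and 10.5, a gap of 4.36 ± 0.42 (adjusted p = 0.000437). For Acta2 the papilla-matrix difference was 3.36, and the gap of 1.06 ± 0.52 was not called (adjusted p = 0.243). Pdlim3, of the muscle Z line, was the gene below (-1.73 ± 0.40, adjusted p = 0.0197). Of 31 general actin and myosin genes 6 were above and none below.

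Of 35 basement membrane genes 2 were above, Nid1 and Nid2, and 8 below. Nid2 had a gap of 4.25 ± 0.36 (SE; limma, adjusted p = 0.000263), with 16.5 ± 1.88 FPKM (SD, n = 2) in the papilla against 200.4 in the sheath. Agrn, at -3.00 between sheath and outer root sheath, was at -0.20 between papilla and matrix (gap -2.80 ± 0.41, adjusted p = 0.00239). Lamb1, not called between sheath and outer root sheath, was 2.52 higher in papilla than in matrix (gap -2.16 ± 0.30, adjusted p = 0.00182). Of 17 integrins 2 were above, Itga11 and Itgb3 (4.03 ± 0.42 and 4.62 ± 0.38, adjusted p = 0.000519 and 0.000249), and 4 below, among them Itga9 and Itgb6. Of the 24 cell cycle genes, all lower in both contrasts, 1 differed between them.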

How the data were processed

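RNA sequencing of sorted cell populations was analysed, 2 dermal sheath libraries against 2 outer root sheath libraries. The table holds FPKM values that the authors deposited, with no counts. The tools credited in the submitters' processing notes are Cufflinks 2.1.1, Bowtie2 and TopHat2 2.0.3, with mm10 as the build and no role or order given. Per the labels' protocols, 6 ng of RNA (integrity number 8 or above) was amplified with the Ovation V2 kit.

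Genes at 1 FPKM or more in at least 2 of the 4 libraries were tested on log2(FPKM + 1) with limma 3.58.1 in R 4.3.3 (intensity trend), and p-values were adjusted by Benjamini-Hochberg over all tested genes. A call needed an adjusted p under 0.05 and a log2 difference of at least 1. Every p printed is an adjusted p from this limma test, from its refit under a named alternative, or from an interaction over 8 libraries, which tested the difference from dermal papilla against matrix. The fit was tested on simulated data. Sequencing depth is unknown, since the low values gave no whole reads. Among the lowest values a common step was seen between replicate 2 libraries only (6.45% to 14.3% of genes sharing 1 ratio in 15 pairs, against 0.597% to 2.53% in 51 other pairs), and each replicate number occurs in both layers. The part of that difference in the results was not tested.

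The members and the 37 lists were chosen with earlier results of these data known. Named by rule were the 12 called genes with the largest log2 difference in each direction (mean of at least 20 FPKM, not listed at 0 in both libraries of the lower layer), up to 5 called members of each list per direction, the most abundant contractile genes of both layers, called contractile genes of the interaction, and a set named whatever its values. Other list members were named after their values were seen, and a few genes of these lists are not reported here. Of 777 distinct list genes, 16 were not matched to the table. Promoter sequences are from RefSeq (GRCm38.p6), and promoters of Tagln, Actg2, Myh11 and Actb were not used here. Alternatives were other pseudocounts, filters and scalings, all 12 libraries in the fit, the replicate number as a block, no trend, and leaving out each library.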

Additional observations from a re-analysis of the deposited data

Results flagged for a closer look

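The following 5 contractile or actin-binding genes differed more between dermal sheath and outer root sheath than between dermal papilla and matrix, by a test of the difference of the log2 differences (limma interaction, 8 libraries, 2 per population). Casq2 exceeded the papilla contrast by 5.27 ± 0.43 (SE, adjusted p = 0.000243), with 161 and 209 FPKM in the sheath and 3.30 and 4.83 in the papilla. Mylk exceeded it by 4.52 ± 0.39 (adjusted p = 0.000263), with 133 and 113 against 9.32 and 8.20. Actg2 exceeded it by 4.36 ± 0.42 (adjusted p = 0.000437). Tmsb10 exceeded it by 3.03 ± 0.35 (adjusted p = 0.000817), and its papilla-matrix difference of -0.24 was not called. Ppp1r14a exceeded it by 2.62 ± 0.48 (adjusted p = 0.00715), with 0.961 and 2.53 FPKM in the papilla and 0 in both matrix libraries. In each of the 5 genes both sheath libraries lay above both outer root sheath libraries. This held for all 2885 genes called higher, so it adds no support for these 5.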

How the results depend on the processing

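No gene called in the report had the opposite sign under any alternative run. The counts of called genes moved by more than 1.5 times at a pseudocount of 5 (1817 higher and 1413 lower), with equal FPKM sums (3662 lower) and when a dermal sheath library was left out. Over all 4 libraries left out in turn they ranged from 1663 to 2732 higher and 1020 to 2136 lower, the upper ends, without an outer root sheath library, being within 1.5 times. Leaving out a library puts 1 library against 2, and the lone library is then assumed to vary like the others. The count of genes above the papilla contrast was 491 at a pseudocount of 0.1. Of 269 named genes tested, 52 and 42 lost their call without dermal sheath library 1 and 2, 11 and 5 without outer root sheath library 1 and 2, 30 at a pseudocount of 5, 14 with no filter on low values, 8 after quantile normalization and 6 with equal FPKM sums. Only uncalled genes changed sign. After quantile normalization and with equal FPKM sums, in that order, the log2 differences were -0.43 and -0.13 for Actg1, -0.15 and -0.029 for Pfn1, -0.11 and -0.025 for Tagln2, -0.10 and -0.034 for Cfl1, and -0.10 and -0.029 for Rhoa. Quantile normalization alone gave -0.012 for Tpm4 and -0.033 for Cald1. Myh9 ranged from -0.49 to 0.051 when a library was left out. Without genes listed at 0 in 1 layer and at 20 FPKM or more in the other, an alternative chosen after seeing the data, 2858 were higher and 2383 lower. With the replicate number as a block, 2949 genes were higher and 2425 lower, all 5272 calls were kept and no named call changed. The numbers are not said to pair libraries, and the replicate differences of the layers correlated at 0.25 across genes, from 2 pairs only. Depth is unknown, so no floor is given for values near 0.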
